A study of Mus musculus with 157 samples.

Results

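Heavy polysomes were compared with monosomes in B cells activated with lipopolysaccharide (LPS), to describe which mRNAs carried many ribosomes and which carried few. The comparison used 40 of the 157 fraction libraries of the series. They came from 4 sucrose gradients of LPS cells, from which fractions 4 to 7 (monosomes, 16 libraries) and fractions 11 to 16 (heavy polysomes, 24 libraries) were taken. Each library was scaled to the same total (CPM, a gene's counts per 1e6 counts of its library), and the CPM values were averaged over the 4 monosome fractions and over the 6 heavy polysome fractions of a gradient. This gave 4 pairs of values per gene, and gradients are named by the pool tag of their libraries, LUL15 to LUL18. Values of single gradients are listed in that order. The gradients are biological replicates per the study's methods, so a p-value here measures the spread between 4 such gradients. The cells were primary splenic B cells of C57BL/6Babr mice kept with LPS at 10 µg/ml for 48 h. They received cycloheximide, which halts elongating ribosomes on mRNA, at 100 µg/ml for 3 min before cytoplasmic extracts were made. Gradients from 2 further treatments, with 40 libraries each of the same fractions, were used to ask whether the distribution recurred and, for LPS+ET, whether it changed. In LPS+ET the cells were also exposed to the topoisomerase II poison etoposide at 20 µM for 4 h. In LPS+ET+KU the ATM kinase inhibitor KU55933 was given at 10 µM for 1 h ahead of etoposide. All cells had LPS, so resting B cells are not part of the comparison, and the cells were purified as B cells without a sort for activated ones.

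An mRNA sediments deeper into a sucrose gradient the more ribosomes it holds, and the number of ribosomes depends on how often translation starts, on how quickly ribosomes move and on how long the coding sequence is. A monosome fraction holds mRNAs with a single ribosome, and other RNAs in particles of like size, such as noncoding RNAs and mitochondrial ribosomes. LPS drives splenic B cells into growth, division and antibody secretion, and growing cells tune ribosomal protein synthesis through mRNAs that begin with a terminal oligopyrimidine (TOP) tract, an uninterrupted run of C and T at the 5′ end.

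The 40 libraries held 14724 to 3403708 counts (median 813966), and 4 of them were under 100000 counts, 3 of monosomes and 1 of heavy polysomes. Summed per gradient, the monosome libraries held 1548206 to 2850390 counts and the heavy polysome libraries 5127067 to 10159252. The study made each library from the same RNA concentration, so a CPM is the share of an mRNA within its fraction and not the amount of it there, and every difference below is a relative enrichment. Each tag comes from a 3′ end and each mRNA has a single such end, so CPM was not divided by length. As a set, B cell markers were abundant in both classes, and none of the 13 was at 0. Their summed levels were 28677 to 45693 CPM in monosomes and 64502 to 123555 CPM in heavy polysomes. Most of this came from the immunoglobulin genes Igkc (means of 26999.5 and 66116.7 CPM) and Ighm (4408.63 and 20482.6 CPM). Single members ranged down to Pax5, at 0.478 and 1.53 CPM. The 14 T cell markers, 11 of them in the table, summed to 126 to 142 and 124 to 159 CPM, nearly all of it from Lck, a kinase that some B cells also express. The 14 myeloid markers, 13 in the table, summed to 88.6 to 186 and 96.3 to 136 CPM with Lyz1 and Mpo at 0. The 9 red cell markers, 7 in the table, summed to 14.1 to 30.1 and 50.1 to 65.7 CPM with Alas2, Slc4a1 and Car1 at 0. Fewer cells of a type and less RNA per cell cannot be told apart in such pooled extracts.

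Of the 19600 genes of the table, 7208 reached a mean of 10 CPM and were tested, and 12392 did not. The test was limma on log2(CPM + 1), with the gradient as a block, and a gene counted as called when its p, adjusted by the Benjamini-Hochberg method, was under 0.01. As CPM, 3498 genes were higher in heavy polysomes (48.5% of those tested), 712 were higher in monosomes (9.88%) and 2998 passed in neither direction. All 4 heavy polysome values lay above all 4 monosome values for 3393 genes (47.1%), and the reverse held for 655 genes (9.09%). The gene in the middle of the distribution was 1.77-fold higher in heavy polysomes, a log2 difference of 0.83, with gradient medians of 0.77, 0.73, 0.95 and 0.84. Beside this shift, a few kinds of RNA took far more of the monosome counts. Cytosolic ribosomal protein mRNAs made up 16.1% ± 1.53 of monosome counts and 2.36% ± 0.348 of heavy polysome counts (SD, n = 4), mitochondrially encoded mRNAs 10.6% ± 1.22 of monosome counts and 1.17% ± 0.300 of heavy polysome counts, and genes annotated as pseudogenes 10.2% ± 0.275 of monosome counts and 2.67% ± 0.102 of heavy polysome counts. The 712 genes called higher in monosomes together held 58.5% ± 1.63 of monosome counts and 10.6% ± 0.570 of heavy polysome counts. The split of the calls differed between scales. With each gradient centred on its median gene, 1428 genes were higher in heavy polysomes (19.8%) and 1588 in monosomes (22%). With TMM scaling of the same CPM values the split was 3329 and 1250. edgeR on summed counts, which also changes the model and the genes tested, called 2845 and 2888 of 9659 genes. In the CPM, centred, TMM and edgeR fits alike, 1399 genes were called higher in heavy polysomes and 691 in monosomes. Below, a difference is on the log2(CPM + 1) scale, heavy polysomes minus monosomes, unless it is said to be relative to the median gene. Counts of called list members stand beside shares over all genes of 48.5% and 9.88%, or 19.8% and 22% once centred. Counts without overlap stand beside 47.1% and 9.09%. The 4 gradients ranked genes alike, with Pearson r between pairs of gradients of 0.73 to 0.85 across genes, which share libraries and are not replicates.

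**Figure D1:**
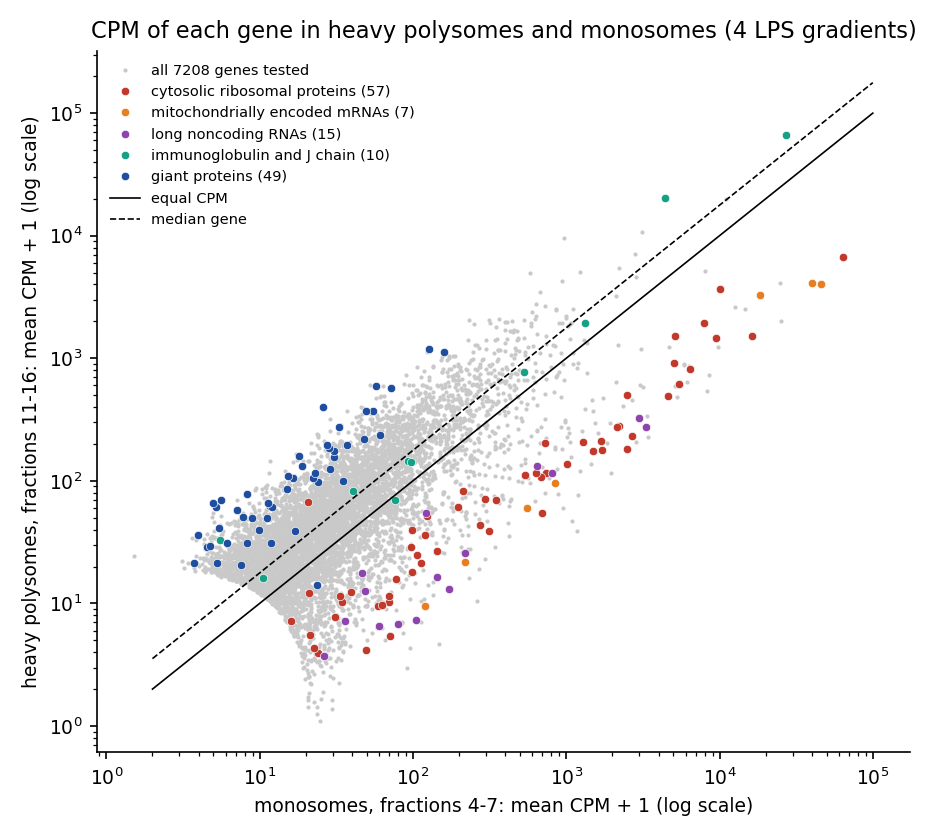
Mean CPM + 1 of each of the 7208 tested genes in monosomes (x axis, log scale) against heavy polysomes (y axis, log scale), over 4 LPS gradients, with 5 gene lists coloured, a solid line at equal CPM and a dashed line through the median gene. Most genes lie above the solid line, by 0.83 log2 units at the median gene, whereas ribosomal protein, mitochondrially encoded and long noncoding RNAs lie below it and giant proteins lie far above it.

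The mRNAs of cytosolic ribosomal proteins, the subunits of the ribosome itself, made up the largest share of monosome counts of any list. Of 78 listed genes, all in the table, 57 were tested and 21 were below the minimum level. Of the 57, 54 were higher in monosomes and 2 did not pass, and the median difference was -2.49, against 0.83 over all genes tested. The 1 entry called higher in heavy polysomes, Rpl24 with 1.72 (SE 0.21), carries an identifier whose symbol in GENCODE M21 is Zbtb11, a zinc finger protein gene, so its value was not read as that of a ribosomal protein. The list median and the counts over 57 entries still include it. For all 54 called higher in monosomes, every monosome value lay above every heavy polysome value. Many ribosomal protein genes have processed pseudogenes of nearly the same sequence, and how reads were split between a gene and its copies is uncertain.

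To show the runs of C and T found near the annotated starts of these genes, windows of 24 bases centred on the run are given for a few of them, read 5′ to 3′ on the gene's own strand from RefSeq (GRCm38.p6), with the longest run of C and T in capitals. Runs of 8 or more C or T were searched on the gene's strand within 50 bases on either side of each start. The runs printed begin at positions from -15 (Rps15a) to 14 (Eef2) relative to the annotated start, so a window need not hold the start itself. They lie nearer the start than many others found. Runs of the ribosomal protein list began from -50 (Rpl26) to 40 (Rpl41), and that of Rpl39 at 36.
Rps15a, chr7:118116146-118116169, minus strand: cggcccaCTCTCTTTCTgccatct
Rps12, chr10:23787184-23787207, minus strand: cgccggCCTTTTCCCCTgccgccg
Rps26, chr10:128626487-128626510, minus strand: cgccggaTCCTCTTTCgagtcttg
Rplp2, chr7:141447639-141447662, plus strand: gtcagcgTCTTCCTTTCgccgccg
Eef2, chr10:81176637-81176660, plus strand: gtcagcggTCTCTTCCgccgcagc
Eif3f, chr7:108934407-108934430, plus strand: taggCTCTCTCTCTTTCTCggcaa

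Starts were found for 45 of the 57 tested entries of the ribosomal protein list, 55 starts in all, and 45 of these (81.8%) held such a run. Among the starts of all genes tested the share was 32.4% of 6757, and among all the RefSeq starts given it was 35.7% of 32851. The other TOP mRNAs had a run at 6 of 9 starts (66.7%), giant proteins at 21 of 43 (48.8%), aminoacyl-tRNA synthetases at 3 of 12 (25%) and proteasome subunits at 7 of 32 (21.9%). A run within this window need not be the first bases of the mRNA.

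Rps15a, a protein of the small subunit (chromosome 7, 118104378 to 118116186, minus strand), was present at 2667, 2761, 2959.9 and 2281 CPM in monosomes and at 251, 234, 222 and 211 CPM in heavy polysomes. Its lowest monosome value was thus far above its highest heavy polysome value, and the difference was -3.53 (SE 0.10), 11.6-fold higher in monosomes (limma, adjusted p = 3.3e-10). Rplp1, an acidic protein of the ribosomal stalk, had 16888, 14359, 19447 and 14036 CPM in monosomes and 1598, 1471, 1709.8 and 1348 CPM in heavy polysomes. It was abundant throughout and differed by -3.39 (SE 0.07). Rps20, a small subunit protein named after its values were seen, held the most counts of the list, with 75289.5, 62072, 68983 and 49319 CPM in monosomes and 8261, 6848, 6963 and 4861 CPM in heavy polysomes and a difference of -3.25 (SE 0.05). Rpl39, a large subunit protein with a very short coding sequence of 51 codons, had the lowest difference of the list, -3.81 (SE 0.11), followed by Rps28 with -3.71 (SE 0.26) and Rps21 with -3.69 (SE 0.14). Rpl36al, a paralog of Rpl36a, was 1 of the 2 that did not pass, at -0.75 (SE 0.35), although it passed without the libraries under 100000 counts. By length of coding sequence, the medians were -2.92 for the 7 ribosomal protein genes under 100 codons, -2.59 for 34 genes of 100 up to 200 codons, and -2.03 for 13 genes of 200 up to 400. The same classes without ribosomal proteins had medians of -0.47, 0.31 and 0.71, so the group lay far below other mRNAs of like coding length in each class.

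The list of other TOP mRNAs, which encode elongation factors and further products of the same class, moved in the same direction by a smaller amount. Of 20 listed, 16 were tested, 11 were higher in monosomes and none was higher in heavy polysomes, with a median of -0.97. Centred on the median gene, all 16 were called lower. Eef1b2, a subunit of the exchange factor that recharges eEF1A with GTP, had 5481, 5145, 6883 and 5972 CPM in monosomes and 974, 927, 904 and 816 CPM in heavy polysomes, with no overlap and a difference of -2.69 (SE 0.10) (limma, adjusted p = 2.1e-09). Tpt1, the translationally controlled tumour protein, differed by -3.11 (SE 0.22), and Pabpc1, the cytoplasmic poly(A)-binding protein, by -1.98 (SE 0.15). The CPM-weighted mean fraction over fractions 4 to 16, called the centre here, had a median of 7.39 for ribosomal proteins and 8.87 for other TOP mRNAs, against 10.7 for all genes tested.

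All 7 tested members of the list of mRNAs made in the mitochondrion, which are translated by mitochondrial and not by cytosolic ribosomes, were higher in monosomes, with no overlap between the classes. Their median difference was -3.28, and their median centre was fraction 6.87. mt-Nd1, a subunit of respiratory complex I, was the most abundant, with 35861, 43037, 47769 and 57669 CPM in monosomes and 3006, 3599, 4981 and 4596 CPM in heavy polysomes. The difference was -3.52 (SE 0.07), 11.4-fold higher in monosomes (limma, adjusted p = 4.5e-11). mt-Cytb, of complex III, had the smallest difference of the 7, -2.53 (SE 0.14), and mt-Co1, of complex IV, had -3.34 (SE 0.20). Of 3 mitochondrial transfer RNA genes tested, all were higher in monosomes, mt-Tl1 by -4.53 (SE 0.14).

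Long noncoding RNAs, which by definition encode no known protein, were on the same side. Of 33 listed, 24 were in the table and 15 were tested, and all 15 were higher in monosomes with no overlap. Their median difference was -3.09, and they ranged from -3.77 (SE 0.29) for Neat1 to -1.17 (SE 0.16) for 1700020I14Rik. Neat1, the scaffold of nuclear paraspeckles, had 144, 124, 61.4 and 83.5 CPM in monosomes and 6.48, 4.29, 6.45 and 8.26 CPM in heavy polysomes. Its monosome values varied widely between gradients and all of them exceeded the heavy polysome values (limma, adjusted p = 6.5e-07). Snhg6, the host transcript of a small nucleolar RNA, differed by -3.72 (SE 0.19), and Ftx, a transcript of the X inactivation centre, by -1.42 (SE 0.25). By annotation class, 35 of 62 tested long intergenic RNAs were higher in monosomes and 3 in heavy polysomes (median -1.84), 18 of 28 tested processed transcripts were higher in monosomes and 2 in heavy polysomes (median -2.04), 12 of 21 tested antisense RNAs were higher in monosomes and 3 in heavy polysomes (median -1.41), 4 of 5 tested small nucleolar RNA genes were higher in monosomes and 0 in heavy polysomes (median -3.17) and 92 of 190 tested pseudogenes were higher in monosomes and 47 in heavy polysomes (median -1.04). Protein-coding genes, 6878 of the genes tested, had 3438 higher in heavy polysomes, 539 higher in monosomes and a median of 0.86.

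Of the genes that are not protein coding, those with the lowest differences at a mean of 50 CPM or more were A430104N18Rik, the host transcript of miR-142 (Mir142hg in GENCODE M21), at -4.85 (SE 0.15), mt-Tl1, Gm7618 at -4.10 (SE 0.24) and Gm14303 at -4.09 (SE 0.11). A430104N18Rik had 1642, 1702, 606 and 760.4 CPM in monosomes against 46.0, 51.0, 21.7 and 32.99 CPM in heavy polysomes, the largest monosome enrichment among them. The 4 with the highest differences were AL831764.1, at 3.17 (SE 0.21), and the pseudogenes Gm12791, Gm12919 and Gm6682, at 2.66 (SE 0.20), 2.33 (SE 0.24) and 2.23 (SE 0.17). Reads of such pseudogenes cannot be told from those of their parent genes with certainty, and the main counted site of AL831764.1 lay outside annotated exons.

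Among genes annotated as protein coding with a mean of 50 CPM or more, the 12 with the lowest differences held ribosomal and mitochondrial mRNAs (Rpl39, Rps21, Rps15a, Rplp1 and mt-Nd1), and Gm10076, Rps26-ps1 and Tmem63c, whose symbols or counted sites do not stand for an ordinary coding mRNA. The main counted sites of Gm10076 (-3.94 (SE 0.09)) and Tmem63c (-3.68 (SE 0.11)) lay outside annotated exons, and Rps26-ps1 (-3.39 (SE 0.19)) is named as a pseudogene of Rps26. The level of Rps26-ps1 varied widely between gradients, from 21.3 to 827 CPM in fraction 5 and from 2.07 to 94.3 CPM in fraction 16. Its lowest value in fraction 5 was thus below its highest in fraction 16. The entry 1500012F01Rik, which is the noncoding Zfas1 in GENCODE M21, differed by -3.61 (SE 0.09). Sepw1, the small selenoprotein W (Selenow in GENCODE M21), differed by -3.37 (SE 0.12). Gm21738 and Gm10717 had the lowest fitted values, -4.31 (SE 0.54) and -4.26 (SE 0.63), and their classes overlapped. Gm21738 had 143, 4.75, 470.4 and 432 CPM in monosomes and 3.61, 0.534, 30.2 and 3.92 CPM in heavy polysomes, so that gradient LUL16 stood apart. Nearly all of the monosome signal of Gm21738 was in fraction 4, with a mean of 1015 CPM against 5.85 to 22.9 CPM in fractions 5 to 7. Fraction 4 of LUL15, LUL17 and LUL18 held 42937, 17629 and 14724 counts, the 3 monosome libraries under 100000 counts, and that of LUL16 held 419646. With these shallow libraries left out, neither Gm21738 nor Gm10717 reached the minimum level, so the lowest fitted values rested on them. In LPS+ET these genes were at 0.40 (SE 0.73) and 0.58 (SE 0.61), and in LPS+ET+KU at 2.45 (SE 0.35) and 2.21 (SE 0.29), so their direction in LPS did not recur.

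The 12 protein-coding genes with the highest differences were led by Tln1. It encodes talin, which links integrins to actin (chromosome 4, 43531519 to 43562691, minus strand), and had 17.5, 39.1, 13.5 and 29.3 CPM in monosomes and 426, 626, 212 and 348 CPM in heavy polysomes. The classes did not overlap and the difference was 3.98 (SE 0.18), 15.7-fold higher in heavy polysomes (limma, adjusted p = 1.5e-08), although the main counted site of this entry lay outside annotated exons. Vcp, an ATPase that extracts ubiquitylated proteins, followed with 3.79 (SE 0.25), then Cltc, the clathrin heavy chain, with 3.57 (SE 0.19), and Heatr1, a factor of ribosomal RNA synthesis, with 3.57 (SE 0.15). The others were Dnmt1, the maintenance DNA methyltransferase (3.45 (SE 0.21)), Gm21972 (3.44 (SE 0.23), with its main site outside annotated exons), Huwe1, a ubiquitin ligase of 4378 codons (3.42 (SE 0.16)), and Lars, the leucyl-tRNA synthetase (3.40 (SE 0.22)). Rrm1, the large subunit of ribonucleotide reductase, differed by 3.39 (SE 0.21), Top2b, a DNA topoisomerase, by 3.38 (SE 0.21), Rrbp1, a ribosome-binding protein of the endoplasmic reticulum, by 3.36 (SE 0.17), and Slc7a1, a transporter of cationic amino acids, by 3.33 (SE 0.18). In all 12 every heavy polysome value exceeded every monosome value. Their choice by size and sign of the difference favours this, and it held for 47.1% of all genes tested.

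The list of giant proteins, 53 genes that encode very long chains, moved most to heavy polysomes. Of 49 tested, 48 were higher in heavy polysomes and none was higher in monosomes, with a median difference of 2.68, and once centred 41 were higher and 1, Ryr1, lower. Their median centre was fraction 13.5. Mll2, a histone methyltransferase (Kmt2d in GENCODE M21), had 6.30, 6.68, 1.54 and 1.33 CPM in monosomes and 69.9, 81.5, 56.1 and 51.0 CPM in heavy polysomes and differed by 3.92 (SE 0.31). Vps13d, a lipid transfer protein, had the lowest difference among those called, 1.20 (SE 0.28), and was not called once centred. Ryr1, the calcium release channel of skeletal muscle, was the exception at -0.72 (SE 0.26) (limma, adjusted p = 0.03), on the side of monosomes without passing the test, although it passed without the libraries under 100000 counts.

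Genes of DNA replication and of mitosis also lay mostly on the heavy side. Their median coding lengths were 505 and 887 codons. All genes of 400 up to 800 codons had a median difference of 0.96, and those of 800 up to 1600 codons 1.34. Whether length accounts for the place of these lists was not tested. Of 27 tested DNA replication genes of 29 listed, 22 were higher in heavy polysomes and none lower, with a median of 1.85 (14 and 0 once centred), and of 29 mitosis genes of 30 listed, 26 were higher and none lower, with a median of 2.05 (19 and 1 once centred). Top2a, the topoisomerase that untangles chromosomes at mitosis and the target of etoposide, was the most abundant of these, with 1093, 946, 766 and 1038 CPM in monosomes and 9763, 11526, 8272 and 8914 CPM in heavy polysomes. It was 10.0-fold higher in heavy polysomes, without overlap (3.32 (SE 0.09), limma, adjusted p = 3.3e-10). Pola1, the catalytic subunit of DNA polymerase alpha, differed by 3.18 (SE 0.19) and Aspm, a spindle pole protein, by 3.11 (SE 0.22). Ube2c, the small ubiquitin-conjugating enzyme of the anaphase-promoting complex, was lowest in the mitosis list at -0.28 (SE 0.15) (limma, adjusted p = 0.11), and it was called lower once centred.

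Fraction by fraction, mRNAs peaked at different depths of the gradient. Rps15a, Rplp1, mt-Nd1, Eef1b2, Pabpc1 and Neat1 had their highest mean CPM in fraction 5. Atf4, a transcription factor of the stress response, peaked in fraction 9, among the light polysomes, at 2553 CPM, and its centre was fraction 9.11. Tmsb4x and Ddit3 peaked in fraction 8, and Eif1 and Ube2c in fraction 9. A lower value in heavy polysomes than in monosomes thus need not mean a peak among the monosomes. H2-K1, Trp53, Hif1a, Actb and Ccnd2 peaked in fraction 13 and Ighm in fraction 14. Tln1, Cltc, Huwe1 and Top2a had their highest mean in fraction 16, the deepest fraction used, where Top2a reached 24614 CPM against 536 CPM in fraction 5. For these the peak may lie deeper than the fractions taken.

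**Figure D2:**
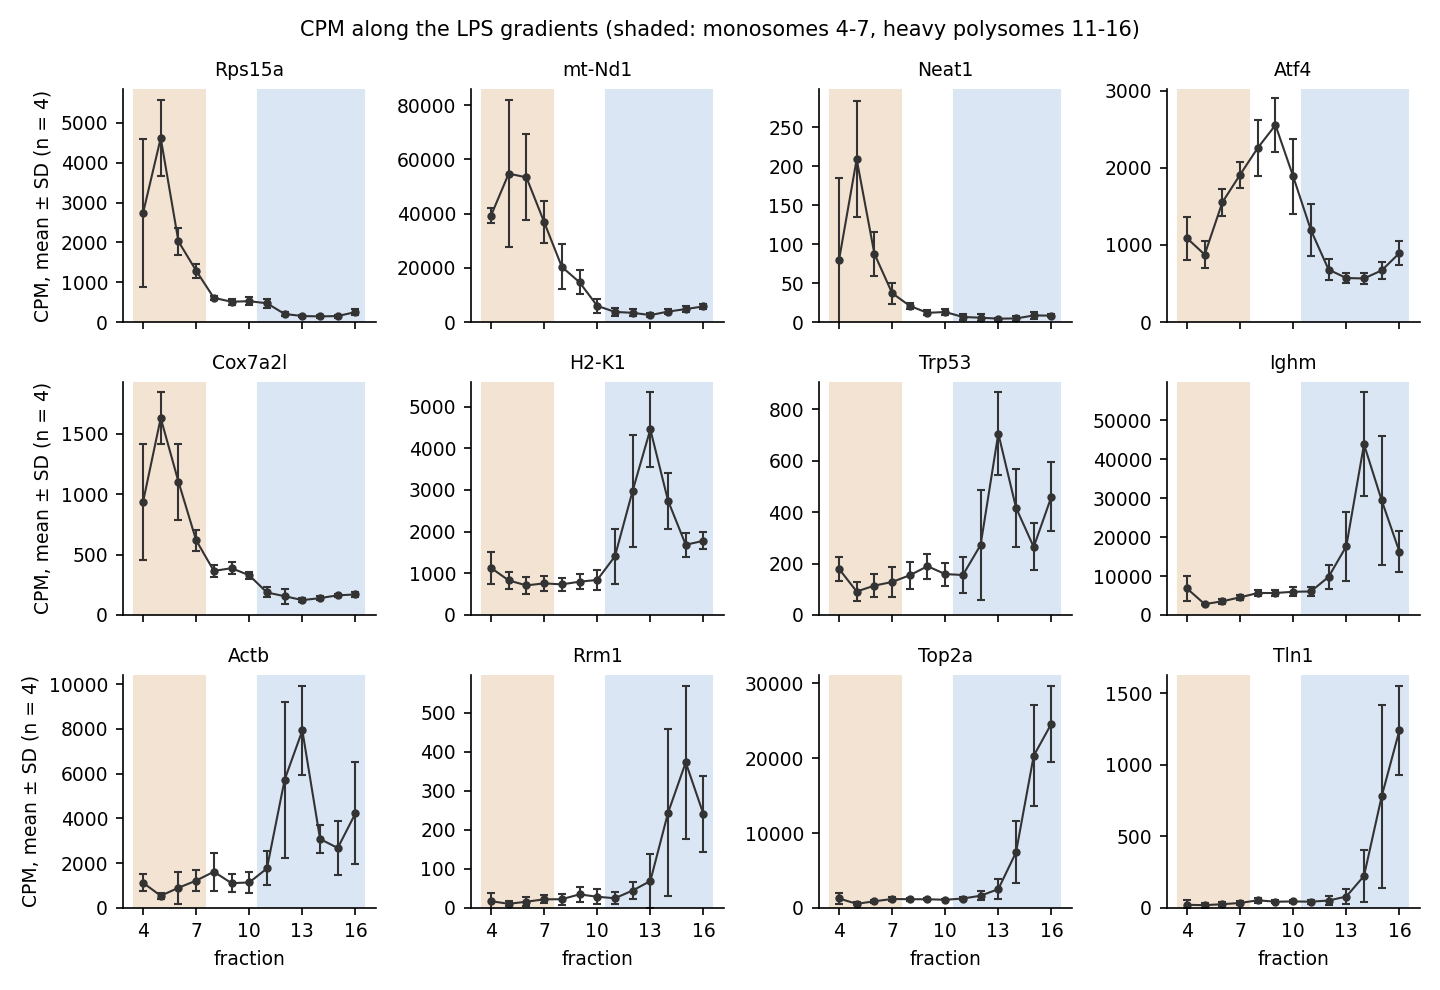
CPM (y axis, linear, mean of 4 LPS gradients with error bars of 1 SD, cut at 0) in fractions 4 to 16 (x axis) for 12 mRNAs, with monosome and heavy polysome fractions shaded. Rps15a, mt-Nd1, Neat1 and Cox7a2l peak at fraction 5, Atf4 at fraction 9, H2-K1, Trp53 and Actb at fraction 13, Ighm at fraction 14, and Top2a and Tln1 at fraction 16.

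The class medians rose with the length of the coding sequence. A coding length was found for 6798 of the 6878 protein-coding genes tested (98.8%). The median difference was -0.52 for 152 genes under 100 codons, 0.24 for 835 genes of 100 up to 200 codons, 0.70 for 2006 genes of 200 up to 400, 0.96 for 2373 genes of 400 up to 800, 1.34 for 1110 genes of 800 up to 1600 and 1.99 for 322 genes of 1600 or more. Under 100 codons, 46.1% of genes were higher in monosomes and 9.21% in heavy polysomes. At 1600 codons or more these shares were 3.42% and 77.0%. The order of the classes was the same in all 4 gradients. Across genes, Spearman's rho of the difference with coding length was 0.37 (0.26 to 0.44 in single gradients), and 0.36 without ribosomal proteins. It was 0.23 at a minimum of 1 CPM and 0.19 with no minimum, and 0.49 at a minimum of 50 CPM. Length thus ordered the class medians while leaving a wide spread, since the middle part of the genes of 400 up to 800 codons, between their quartiles, ran from 0.27 to 1.53. The median centre moved from fraction 9.25 in the shortest class to fraction 12.6 in the longest.

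Genes with 1 or more ATG triplets in the annotated 5′ leader, the stretch ahead of the coding sequence, had lower medians than those with none in each class of length. At 1600 codons or more the medians were 1.87 with an upstream ATG (184 genes) and 2.20 without (138 genes), and at 200 up to 400 codons 0.58 (850 genes) and 0.80 (1156 genes). In these classes the order held in all 4 gradients, and the distance between the medians was small beside the spread of single genes. Genes are not replicates, and no test was made.

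**Figure D3:**
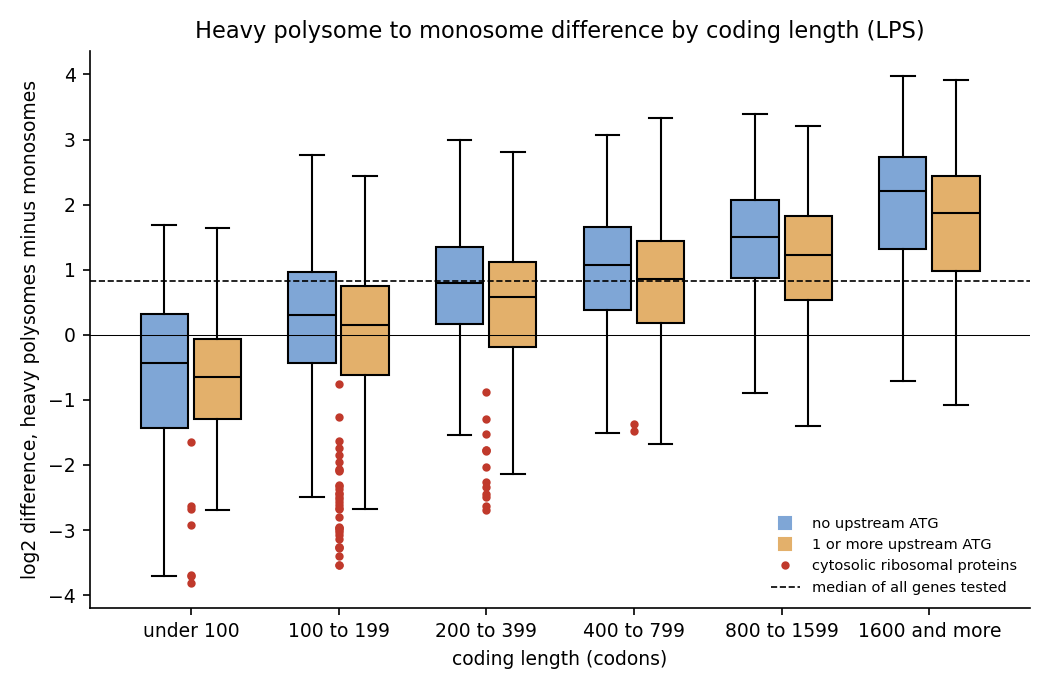
Difference between heavy polysomes and monosomes (y axis, log2 of CPM + 1, mean of 4 LPS gradients) for tested protein-coding genes by coding length in codons (x axis) and by whether the 5′ leader holds an ATG, with boxes for the quartiles, a line for the median, whiskers to 1.5 times the interquartile range, points beyond left out, and a dashed line at the median of all genes. Medians rise from the shortest class (-0.52 for both kinds together) to the longest (1.99), and the red points of single ribosomal protein genes lie below the boxes of their class.

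Factors that start translation and charge its transfer RNAs lay mostly on the heavy side. Of 23 tested initiation factors of 25 listed, 17 were higher in heavy polysomes and none lower, with a median of 1.41, and once centred 13 were higher and 3 lower. Eif4g1, the scaffold of the cap-binding complex, had 56.4, 58.7, 54.4 and 69.4 CPM in monosomes and 522, 567, 397 and 458 CPM in heavy polysomes. Its classes were far apart (3.00 (SE 0.15)), as were those of Eif3a, the largest subunit of eIF3 (2.98 (SE 0.14)). The lowest of the list were Eif4ebp2, an inhibitor of eIF4E, at -0.52 (SE 0.21) and Eif1, a factor of start codon choice, at -0.20 (SE 0.12), neither of which passed, although Eif4ebp2 passed without the libraries under 100000 counts. All 20 aminoacyl-tRNA synthetases were tested, 19 were higher in heavy polysomes and none lower, and the median was 2.10, with 14 higher and 1 lower once centred. Their median coding length was 691 codons. After Lars came Eprs, the bifunctional glutamyl- and prolyl-tRNA synthetase, at 3.09 (SE 0.23). Farsa, a subunit of phenylalanyl-tRNA synthetase, was lowest of those called at 1.02 (SE 0.17) and was not called once centred, and Qars, for glutamine, was at -0.05 (SE 0.12) (limma, adjusted p = 0.75).

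Subunits of complexes that degrade or fold proteins were nearly all on the heavy side. Of 35 proteasome genes tested of 39 listed, 31 were higher in heavy polysomes and 1 lower, with a median of 1.57, and once centred 20 were higher and 1 lower. The highest were Psmd13 and Psmd2, subunits of the regulatory particle, at 2.31 (SE 0.17) and 2.30 (SE 0.26). The 1 lower was Psmb1, a subunit of the core, at -0.55 (SE 0.12) (limma, adjusted p = 0.0014). All 8 genes of the CCT chaperonin, which folds actin and tubulin, were higher, with a median of 1.14, 4 of them once centred. They ran from 1.94 (SE 0.16) for Cct3 to 0.59 (SE 0.13) for Tcp1, whose sign was the opposite in the centred fit and with edgeR on summed counts.

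Of the products that mark a B cell preparing to secrete antibody, the immunoglobulin chains were the most abundant. Ighm, the constant region of IgM (chromosome 12, 113418950 to 113422730, minus strand), had 3893, 3810.2, 4919 and 5012 CPM in monosomes and 15355, 17707, 27859 and 21009.7 CPM in heavy polysomes. It was 4.57-fold higher in heavy polysomes in gradients that all agreed in direction (2.19 (SE 0.08), limma, adjusted p = 2.8e-09). Igkc, the kappa light chain constant region, named after its values were seen because it was the most abundant marker, had 19458, 21024, 33263 and 34252 CPM in monosomes and 38609.7, 52413, 83424 and 90020.5 CPM in heavy polysomes and differed by 1.26 (SE 0.06). The 8 immunoglobulin constant genes of the table took 3.16% ± 0.843 of monosome counts and 8.68% ± 2.91 of heavy polysome counts. Of the 16 immunoglobulin and J chain genes listed, 13 were in the table and 10 were tested, 8 were higher in heavy polysomes and none lower. The median was 0.91, near that of all genes, and 3 were higher and 1 lower once centred. Ighg2c, the constant region of IgG2c, was highest at 2.56 (SE 0.31). The tags do not separate the membrane and secreted forms here, as counts are per gene.

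Machinery of the endoplasmic reticulum, where antibody chains are made and folded, had 32 of 41 tested genes (44 listed) higher in heavy polysomes and 3 lower, with a median of 1.51, and 19 higher and 7 lower once centred. Hspa5, the chaperone BiP, had 169.7, 193, 143 and 154 CPM in monosomes and 926, 993, 890.1 and 1028 CPM in heavy polysomes and differed by 2.54 (SE 0.11), and Hsp90b1, the chaperone GRP94, differed by 2.76 (SE 0.25). Lower were Sec61b, a small subunit of the translocon, at -1.56 (SE 0.24), and Ssr4, of the translocon-associated complex, at -0.88 (SE 0.12). Neither peaked among the monosomes. Sec61b had its highest mean in fraction 9, among the light polysomes. That of Ssr4 was in fraction 11, the first heavy polysome fraction, at 622 CPM, and its light polysome mean was 472 CPM. Of 16 MHC genes, which present antigen, all were tested, 13 were higher in heavy polysomes and 1 lower, with a median of 1.12, and once centred 6 were higher and 3 lower. Tapbp, which loads peptides on class I, was highest at 2.05 (SE 0.09), followed by H2-DMb2 at 2.00 (SE 0.19). The 1 lower was H2-Ob, at -0.49 (SE 0.14), with classes that overlapped and a call that was lost when any single gradient was left out.

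Transcription factors of B cells had 19 of 27 tested genes (31 listed) higher in heavy polysomes and 1 lower, with a median of 0.96, and 8 higher and 2 lower once centred. Ets1 and Ikzf1, which keep lymphocyte identity, were highest at 2.66 (SE 0.18) and 2.23 (SE 0.17). The 1 lower was Bach2, a repressor of plasma cell differentiation, at -1.77 (SE 0.14), although its classes overlapped and its main counted site lay outside annotated exons. Id2, an inhibitor of E proteins, was at -0.86 (SE 0.47) and did not pass. Of 12 B cell markers tested (13 listed, Pax5 below the minimum level), 10 were higher in heavy polysomes and none lower, with a median of 1.00, and once centred 5 were higher and 1 lower. Cr2, the complement receptor, was highest at 2.21 (SE 0.19). Of the markers of other cells, 1 T cell gene was tested, Lck, at 0.12 (SE 0.14) without a call, with the opposite sign with TMM scaling, once centred and with edgeR. Of 5 myeloid genes tested 2 were higher in heavy polysomes and 1 lower, Elane at -3.37 (SE 0.30), whose main counted site lay outside annotated exons. The 1 red cell gene tested, Hbb-b2 (Hbb-bt in GENCODE M21), was higher in heavy polysomes at 1.48 (SE 0.25).

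Several lists lay on both sides as CPM. Immediate early mRNAs and others with AU-rich elements, which are short-lived, had 9 of 23 tested genes (35 listed) higher in monosomes and 5 higher in heavy polysomes, with a median of -0.09, and once centred 13 and 1. Zfp36, which binds AU-rich elements and hastens decay, had 797, 771, 1002 and 803 CPM in monosomes and 185, 166, 217 and 162 CPM in heavy polysomes, a difference of -2.20 (SE 0.11) without overlap (limma, adjusted p = 2.4e-08). Il10, a cytokine of activated B cells, was lower by a like amount at -2.05 (SE 0.22). Per1, a clock repressor, and Ier5, an immediate early factor, were higher in heavy polysomes at 1.61 (SE 0.18) and 1.28 (SE 0.15).

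Of 13 tested mRNAs with regulatory upstream reading frames or stress response products (15 listed), 3 were higher in heavy polysomes and 2 in monosomes, with a median of -0.11, and once centred 2 and 7. Atf4 had 1204, 1446, 1352 and 1423 CPM in monosomes and 642, 691, 879 and 837 CPM in heavy polysomes, and all gradients differed the same way (-0.84 (SE 0.10), limma, adjusted p = 2.1e-05). Ddit3, a transcription factor that Atf4 induces, was at -1.12 (SE 0.21). Higher in heavy polysomes were Azin1, an inhibitor of antizyme, at 1.83 (SE 0.23) and Cebpg, a partner of Atf4, at 1.63 (SE 0.20). Of 11 tested iron and polyamine genes (16 listed) 6 were higher in heavy polysomes and 1 lower, with a median of 1.17, and once centred 3 were higher and 3 lower. The CPM counts were near the shares over all genes tested, 48.5% and 9.88%. Fth1, the ferritin heavy chain, whose mRNA iron regulatory proteins can block, had 2080.3, 1741, 1720.5 and 1445 CPM in monosomes and 488, 549, 451 and 399.5 CPM in heavy polysomes. Tfrc, the transferrin receptor, was on the other side, with 204, 144, 138 and 127 CPM and 596, 468, 622 and 591 CPM. The differences were -1.88 (SE 0.10) for Fth1 and 1.90 (SE 0.14) for Tfrc, and in neither gene did the classes overlap.

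Nuclear genes of the respiratory chain divided as well. Of 67 tested (72 listed), 22 were higher in heavy polysomes and 17 in monosomes, with a median of 0.35. Once centred, 6 were higher in heavy polysomes and 31 in monosomes. These calls leave out the light polysomes, where the list took its largest share of counts. That share was 3.84% in fraction 9, against 1.10% in fraction 4, 2.01% in fraction 7 and 1.22% in fraction 16. The list is rich in short coding sequences, with a median of 141 codons. Cox7a2l, a factor of supercomplex assembly with 111 codons, had 1081, 1051, 1129.5 and 1025 CPM in monosomes and 153, 147, 188 and 137 CPM in heavy polysomes. It was the lowest at -2.78 (SE 0.11), and Uqcr10, with 64 codons, followed at -2.10 (SE 0.16). Ndufs1 and Atp5b, with 727 and 529 codons, were the highest at 2.21 (SE 0.17) and 1.95 (SE 0.15). Proteins of the mitochondrial ribosome had 15 of 65 tested genes (75 listed) higher in heavy polysomes and 7 in monosomes, with a median of 0.31 and a range from -1.93 (SE 0.18) for Mrpl33 and -1.54 (SE 0.19) for Mrpl52 to 2.07 (SE 0.23) for Mrpl3. Once centred, 1 of them was higher in heavy polysomes and 25 in monosomes. The share of this list was also largest among the light polysomes, at 0.916% in fraction 10. Of 50 replication-dependent histone genes, whose mRNAs mostly end without a poly(A) tail, only 3 reached the minimum level, and none of them passed (-0.62 to -0.14), whereas all 3 were called lower once centred. The histone list, too, had its largest share in fraction 10, at 0.0571%.

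Glycolysis had 9 of 10 tested genes (15 listed) higher in heavy polysomes and none lower, with a median of 2.24, and once centred 7 were higher and 1 lower. Hk1 and Pfkp, the kinases of its early steps, were highest at 3.04 (SE 0.22) and 2.57 (SE 0.18), and Aldoa, the aldolase, was at 0.86 (SE 0.11), a call that was lost once centred. Gpi1, glucose-6-phosphate isomerase, was at -0.08 (SE 0.12) and was called lower once centred. Genes of the cytoskeleton had 17 of 23 tested (26 listed) higher in heavy polysomes and 1 lower, with a median of 1.07, and once centred 8 were higher and 1 lower. Actb, beta-actin with 375 codons, had 1164, 1333, 731 and 543 CPM in monosomes and 4653, 5599, 3652 and 3022 CPM in heavy polysomes. The 1 lower was Tmsb4x, thymosin beta 4, an actin-binding peptide of 44 codons, with 1939, 2474, 1672 and 1653 CPM and 341, 320.4, 296 and 234 CPM. Actb differed by 2.22 (SE 0.10) and Tmsb4x by -2.69 (SE 0.11), each without overlap, and Tubb4b, a tubulin, was at 1.88 (SE 0.17).

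**Figure D4:**
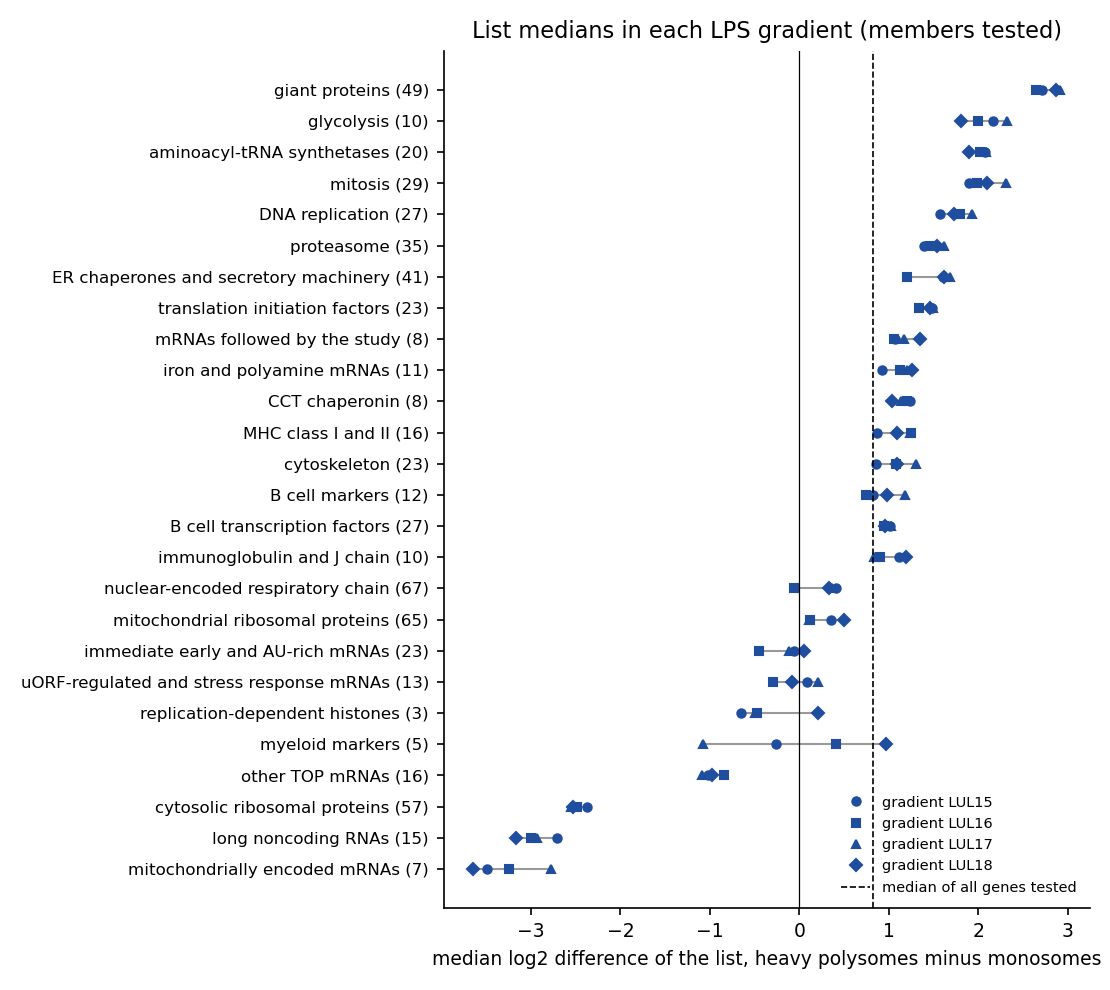
Median log2 difference (x axis, heavy polysomes minus monosomes) of each gene list with 3 or more tested members (y axis, number of members in parentheses), with a point for each of the 4 LPS gradients and a dashed line at the median of all genes tested, 0.83. Mitochondrially encoded mRNAs, long noncoding RNAs and ribosomal proteins lie below -2 in every gradient, and giant proteins lie highest.

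Of the 9 mRNAs that the study followed for its question on p53 and stress granules, 8 were tested, 5 were higher in heavy polysomes and 1 was lower, and Gadd45a was below the minimum level, and once centred 4 were higher and 3 lower. Trp53, which encodes p53 (chromosome 11, 69580359 to 69591873, plus strand), had 121, 161, 106 and 124 CPM in monosomes and 308, 514, 279 and 416 CPM in heavy polysomes. Its classes did not overlap and it was 2.89-fold higher in heavy polysomes (1.53 (SE 0.13), limma, adjusted p = 1.6e-06), which is 0.70 relative to the median gene. Hif1a, the oxygen-regulated transcription factor, had 160.1, 81.9, 82.1 and 66.6 CPM and 349, 204, 251 and 215 CPM, and differed by 1.43 (SE 0.15). H2-K1, a class I heavy chain, had 906, 904, 624 and 992 CPM and 2641, 2898, 2029 and 2458 CPM, and Ccnd2, cyclin D2, had 109, 63.3, 110.2 and 149 CPM and 488, 425, 652 and 481 CPM. They differed by 1.56 (SE 0.09) and 2.28 (SE 0.17), so Trp53 lay close to H2-K1 and Hif1a and Ccnd2 lay above them. Fractions lighter than fraction 4 were not part of the comparison, so mRNA in them was not counted. The paper proposes that p53 mRNA held by Tia1 in stress granules escaped its fraction sequencing. It could hardly detect p53 protein in activated B cells. These differences therefore do not give the share of an mRNA that was translated.

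The RNA-binding proteins of the set differed from each other. Tial1, a relative of Tia1, had 41.3, 42.4, 32.1 and 25.9 CPM in monosomes and 85.3, 75.2, 62.9 and 69.3 CPM in heavy polysomes, a difference of 1.04 (SE 0.18) that was not called once centred. Tia1, the stress granule protein that the study mapped on 3′ untranslated regions, had 30.4, 20.1, 34.99 and 36.5 CPM and 24.6, 19.2, 41.2 and 25.5 CPM, values that overlapped (-0.16 (SE 0.22), limma, adjusted p = 0.54). Pabpc1 had 232, 177, 284 and 195 CPM in monosomes and 53.9, 47.0, 62.8 and 55.5 CPM in heavy polysomes, 3.95-fold higher in monosomes. Cdkn1a, the p21 inhibitor of the cell cycle and a target of p53, had 65.4, 22, 32.03 and 106 CPM and 26.7, 17.4, 56.1 and 29.3 CPM. Its classes overlapped and it did not pass (-0.65 (SE 0.35), limma, adjusted p = 0.12).

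**Figure D5:**
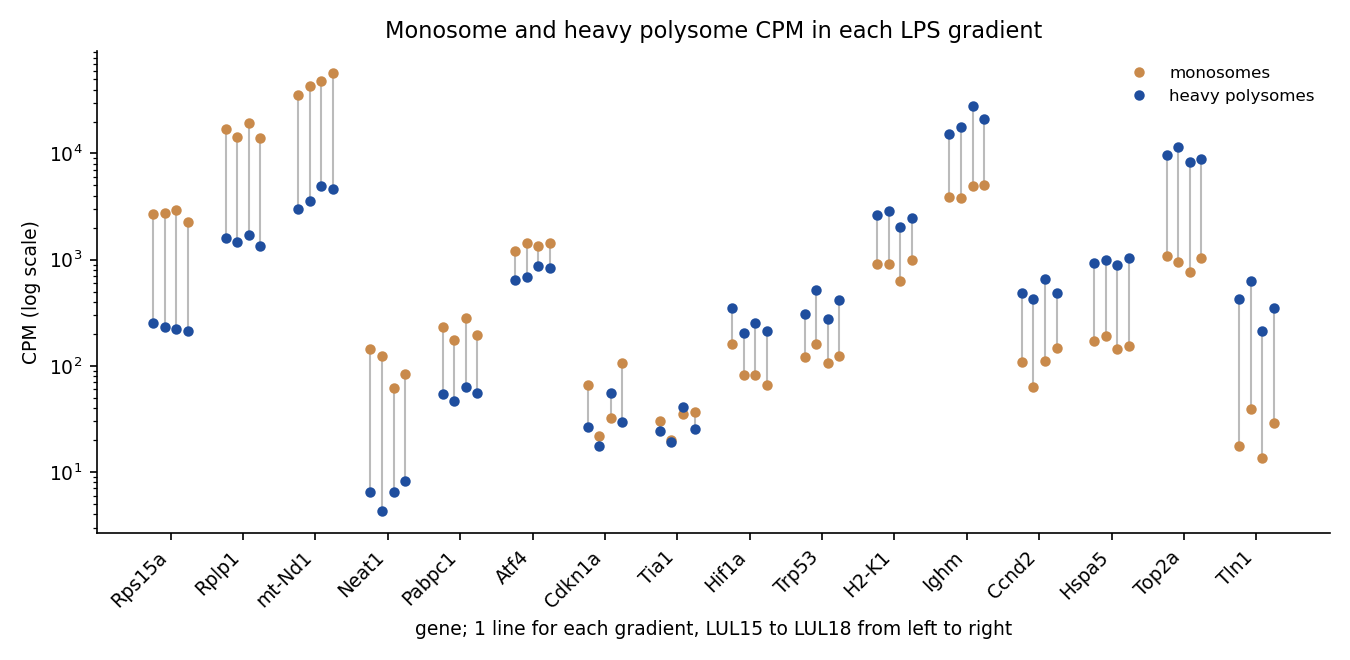
CPM (y axis, log scale) of 16 mRNAs (x axis) in monosomes (brown) and heavy polysomes (blue), with a vertical line for each of the 4 LPS gradients. Rps15a, mt-Nd1 and Pabpc1 are higher in monosomes in all 4 gradients, Trp53, Ighm and Top2a are higher in heavy polysomes in all 4, and Cdkn1a and Tia1 are higher in monosomes in 3 gradients and in heavy polysomes in LUL17.

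The same comparison in gradients that the LPS fit did not use gave a like ordering. In LPS+ET, 3247 of 7350 genes were higher in heavy polysomes (44.2%) and 624 higher in monosomes (8.49%), and in LPS+ET+KU 4355 of 7379 (59.0%) and 853 (11.6%). Of the genes called higher in heavy polysomes in LPS, 3422 were tested in LPS+ET, 97.8% of them had the same sign there and 77.6% were called the same way. For genes called higher in monosomes these figures were 668, 91.9% and 68.6%. In LPS+ET+KU the shares of same sign were 98.1% and 92.4%, and those called the same way 89.5% and 79.8%. Calls in the opposite direction were few, 9 and 1 in LPS+ET and 16 and 17 in LPS+ET+KU. Across genes the mean differences correlated with those of LPS at Pearson r of 0.85 and 0.86.

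The lists at the ends of the order stayed on their side, and some in the middle moved. Ribosomal proteins had medians of -2.70 with etoposide alone and -2.78 with the inhibitor as well, with 55 and 56 of 57 tested entries higher in monosomes. Giant proteins had medians of 2.24 and 2.53, with 41 of 47 and 45 of 46 higher in heavy polysomes. Mitochondrially encoded mRNAs had medians of -2.22 and -1.84, and 6 and 5 of 7 were higher in monosomes. Long noncoding RNAs had medians of -2.25 and -2.75, and 14 and 15 of 15 were higher in monosomes. Other TOP mRNAs had medians of -1.61 and -1.79 against -0.97 in LPS, and the immunoglobulin and J chain list had 2.11 and 1.67 against 0.91. Relative to the median gene of each treatment, that list was at 1.32 and 0.79 against 0.08, and the CCT chaperonin at -0.04 and -0.37 against 0.31. These differences between treatments were not tested for the lists. Trp53 was at 2.66 (SE 0.19) in LPS+ET and 2.46 (SE 0.16) in LPS+ET+KU.

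Whether the difference itself changed with etoposide was tested on the 8 paired differences of LPS and LPS+ET. It passed for 27 of 7360 genes (0.367%), with 7 more to heavy polysomes in LPS+ET and 20 less. Aldoa, at 0.86 (SE 0.11) in LPS and -0.29 (SE 0.17) in LPS+ET, was the only gene chosen by the naming rule that passed, with a change of -1.16 (SE 0.19) (limma, adjusted p = 0.0087). Ldha, lactate dehydrogenase A, also of the glycolysis list and named after its values were seen, changed by -1.93 (SE 0.24) (limma, adjusted p = 0.002). It was at 2.39, 2.14, 2.25 and 2.89 in the LPS gradients and 0.97, 0.32, 0.32 and 0.32 in the LPS+ET gradients, without overlap. Its level in LPS was 66.5, 76.7, 69.2 and 37.2 CPM in monosomes and 352, 342, 332 and 281 CPM in heavy polysomes. Reads of Aldoa and Ldha can be shared with pseudogene copies. These counts rested on single gradients, since without LPS gradient LUL15 or LPS+ET gradient LUL18 no gene passed in either direction (limma). At an unadjusted p under 0.05 there were 1213 and 1339 genes without these gradients, against 1497 with all 8. Leaving out any other gradient gave 4 to 47 genes in both directions together, the most without LPS+ET gradient LUL16. In that gradient, heavy polysome fractions 11, 12, 15 and 16 held 54686, 33476, 80915 and 63879 counts, all under 100000. Fraction 16 of LPS+ET gradient LUL15 held 51226 counts, and fraction 4 of LUL17 and LUL18 held 32104 and 74715. The LPS+ET fits and the test of the change were not rerun without these shallow libraries. For Trp53 the change was 1.13 (SE 0.24) (limma, adjusted p = 0.02), and it was not called.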

How the data were processed

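PolyRibo-3′ RNA-seq, sequencing of the 3′ ends of mRNA from single polysome fractions, was deposited as a table of counts per gene. The authors reverse transcribed equal RNA concentrations per fraction, removed PCR duplicates by random bases, aligned tags and counted them at poly(A) sites. The submitters' processing notes name TopHat2 2.0.12, HTSeq, DESeq2 1.6.3 and GRCm38 (mm10). The deposited counts were scaled here to CPM of each library and averaged per gradient and class. Genes with a mean of 10 CPM or more over the 8 values were tested with limma 3.58.1 (R 4.3.3, intensity trend) on log2(CPM + 1) with the gradient as a block, two-sided, with Benjamini-Hochberg adjustment over all genes tested. limma was the main test because the values compared are averages of CPM, and edgeR 4.0.16 and DESeq2 1.42.0 on summed counts were alternatives. The block rests on monosomes and heavy polysomes of a pair coming from 1 gradient, and their deviations correlated at r of 0.097 to 0.703. Columns were matched to treatment and fraction by name, and 0 columns belonged to no sample.

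Named genes were the 12 protein-coding genes with the largest differences in each direction (called, a mean of 50 CPM or more, same sign in 4 gradients), 4 of other classes in each direction, the mRNAs followed by the study, and the 2 highest and 2 lowest of each of 28 lists, of which not all are printed. The members and lists were chosen with earlier results of these data known. Gene positions came from the table, which counts from 0, and were printed after adding 1. Coding lengths, upstream ATGs and current symbols came from GENCODE M21. The steps were tested on simulated counts in which a small set of genes changed in either direction. No broad shift of composition between the classes was simulated, so that run does not bear on calls under such a shift. Other pseudocounts, filters, TMM scaling, inner fractions, leaving out shallow libraries or 1 gradient, and fits without the block were tried, and centring on the median gene was chosen after seeing the data. The depth of a library limits its precision, and averaging CPM gives shallow libraries the weight of deep ones.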

Additional observations from a re-analysis of the deposited data

Results flagged for a closer look

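Of 114 genes named with a value, 4 had 1 gradient far from the other three, where chance gives about 1 in 20. The 4 are thus no more than that rate would give. Mrpl52 was at -1.19 in gradient LUL18 against -1.72 to -1.63 in the others. Ssr4 was at -1.16 in LUL16 against -0.82 to -0.75. Ikzf1 was at 2.70 in LUL18 against 2.06 to 2.09, and Cltc at 4.19 in LUL17 against 3.32 to 3.43. In each gene all 4 gradients had the same sign. The difference between heavy polysomes and monosomes changed between LPS and LPS+ET for Aldoa by -1.16 and for Ldha by -1.93, each past the test of the change itself with all 8 gradients, and all 4 LPS+ET gradients lay below all 4 LPS gradients in both genes. With a block by pool the call of Aldoa was lost (limma, adjusted p = 0.012), and without LPS gradient LUL15 or LPS+ET gradient LUL18 neither gene passed.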

How the results depend on the processing

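The counts of calls moved with the scale, the method and the minimum level. In LPS, genes higher in heavy polysomes numbered 3498 and fell to 1428 when centred and to 1806 at a minimum of 50 CPM, which tests fewer genes. Genes higher in monosomes numbered 712, and 2888 with edgeR and 2564 with DESeq2, which also sum counts and change the model, 1250 with TMM scaling, 1588 centred and 393 at a minimum of 50 CPM. In LPS+ET the centred counts were 1200 and 1333, and TMM gave 960 in monosomes. In LPS+ET+KU they were 1910 and 2091 centred and 2734 and 1678 with TMM. Leaving out 1 gradient gave 2688 to 3397 and 546 to 731 in LPS, 2253 to 3620 and 437 to 706 in LPS+ET, and 3807 to 4454 and 688 to 861 in LPS+ET+KU. Why the scales differ was not tested, and the limit is that a CPM is a share of its library. In LPS, averaging weights 4 libraries under 100000 counts like deep ones, and without them 4388 and 906 genes were called. This was not tried for the other treatments.

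The gradient entered as a replicate block, and without the block 2949 and 535 genes were called in LPS. Between LPS and LPS+ET, gradients of the same pool tag correlated at r of -0.068 to 0.393, with 1 of 4 LPS gradients highest at its own tag. By the labels a tag can mark a shared replicate, and correlations over 4 gradients cannot settle whether it did. The main test of the change had no block, and a block by pool gave 7 and 15 genes against 7 and 20. For that difference of differences, TMM gave 23 and 74, centring 15 and 34, and an adjusted p under 0.05 gave 112 and 173. Leaving out 1 gradient gave 0 to 20 and 0 to 27.

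Relative to the median gene, ribosomal proteins were at -3.31, and at -3.45 with TMM, -3.41 and -2.94 with pseudocounts of 0.25 and 5, -2.79, -3.61 and -2.41 at a minimum of 1 CPM, 50 CPM and none, -3.43 without the shallow libraries, -3.59 with inner fractions (5 to 7 and 12 to 16), and -3.34 to -3.20 without 1 gradient. Mitochondrially encoded mRNAs were at -4.11, at -3.43 with no filter and at -4.24 to -3.96 without 1 gradient. Long noncoding RNAs were at -3.92, at -3.45 with a pseudocount of 5, and at -3.23, -4.20 and -2.68 with the filters at 1, 50 and none. Giant proteins were at 1.86, and at 1.5 with edgeR, 1.52 with DESeq2, 1.56 with a pseudocount of 5, 2.18, 1.72 and 2.49 with the filters, and 2.01 with inner fractions. Spearman's rank correlation of the difference with coding length, across genes, was 0.37, and 0.27 with edgeR, 0.27 with DESeq2, 0.23, 0.49 and 0.19 with the filters, 0.50 with inner fractions and 0.31 to 0.39 without 1 gradient. These 4 list medians kept their direction in every alternative run. So did the others except those of B cell markers, red cell markers, immunoglobulin and J chain, mitochondrial ribosomal proteins and the respiratory chain, which turned in 1 alternative each.

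Of 114 genes named with a value, 97 kept their direction and call once centred, 98 with edgeR and 114 with either pseudocount. Signs turned for Lck (-0.53 with edgeR and DESeq2, -0.29 with TMM, -0.70 centred, -0.024 with inner fractions), Tcp1 (-0.29 with edgeR and DESeq2, -0.23 centred), Tia1 (0.0084 without shallow libraries, 0.20 with inner fractions), Cdkn1a (0.10) and Gpi1 (0.11), the last pair with inner fractions. The causes were not tested.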
